A study of Danio rerio with 9 samples.

Results

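The 74 genes described here encode the protein parts of the cytosolic ribosome, as measured by RNA sequencing of whole zebrafish embryos. Members were taken by symbol: every gene whose symbol, in either case, began with rpl, rps or rplp and a number, leaving out the S6 kinase genes. The rule found 74 of the 32434 genes in the count table, of which 40 carry large-subunit symbols and 32 small-subunit symbols. The other 2 are rps19bp1, which encodes a protein that binds RPS19, and RPL7L1, which encodes an RPL7-like assembly protein. The rule itself used no measured value, but the set was chosen with earlier results of these data known. The RefSeq gene table for the zebrafish assembly GRCz12tu lists 85 symbols of this form, and 14 of them had no symbol match among the members, among them rpsa, rps3, rps18, rpl13, rpl14, rpl24 and rpl26. Those genes were not analysed here under these names.

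The study exposed wild-type 5D embryos to one of a pair of oxygenated polycyclic aromatic hydrocarbons and sequenced polyadenylated RNA. The BEZO group received 10 µM 1,9-benz-10-anthrone, a ketone, and the BaAQ group 10 µM benzanthracene-7,12-dione, a quinone. The Control group received the vehicle, 1% DMSO, which the label of every group names. All groups were exposed from 6 to 48 hours post fertilization (hpf), in the dark, in vials of 20 embryos in 2 mL, and were sampled at 48 hpf. The labels give 37 °C as the temperature, well above what zebrafish embryos are usually kept at; no value here bears on it. A group was 3 vials and a vial was 1 library of pooled whole embryos. The labels call the vials independent biological replicates of embryos from spawns on several days.

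A ribosome is built from a small subunit, which reads the messenger RNA, and a large subunit, which joins the amino acids. Each subunit combines ribosomal RNA with many proteins that are needed in near-equal numbers, and the messages of these proteins are among the most abundant in growing embryos. In vertebrates they share a start sequence, the 5′ terminal oligopyrimidine tract, through which the kinase mTORC1 controls their translation. When assembly is disturbed, free RPL5 and RPL11 bind MDM2, the ligase that marks p53 for destruction, and p53 accumulates. Loss of 1 copy of many of these genes causes Diamond-Blackfan anaemia in people, and zebrafish with too little of a ribosomal protein show p53 activation and anaemia.

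The libraries held 8106613 to 14435626 counted reads. Levels are given as normalised CPM, that is, reads scaled to a common library total and by the library's TMM factor. TMM factors ran from 0.9607 to 1.017. Sums over a gene list are instead CPM of the library total, without the TMM factor. They take in all matched genes of the list, tested or not. All 74 members passed the filter on low counts; with them 18860 genes were tested. Member fold changes could therefore be measured closely: the median standard error was 0.077 on the log2 scale in each comparison, against 0.134 to 0.138 for all tested genes. The labelled whole-embryo source was checked against marker lists for 9 tissues. Genes of skeletal muscle, neurons, epidermis, lens, photoreceptors, heart muscle, red blood cells, and liver and yolk had reads, with 2 of 11 photoreceptor genes at 0 in at least 1 library, while the exocrine pancreas list summed to only 1.24 to 2.71 CPM.

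Ribosomal protein genes took 2.83 to 3.36% of the counted reads, and 1 BaAQ library stood apart from the other 2. The share of counted reads was 3.24, 3.13 and 3.11% in the BEZO libraries. It was 3.36, 3.27 and 2.83% in the BaAQ libraries, and 3.03, 2.86 and 2.9% in the Control libraries. All 3 BEZO libraries and 2 of 3 BaAQ libraries lay above every Control library, and BaAQ 3 lay below every Control library. Group means were 3.16% ± 0.0737 in BEZO, 3.16% ± 0.283 in BaAQ and 2.93% ± 0.0855 in Control (SD, n = 3 each). The 95% Wilson interval around each library's share was at most 0.0123 percentage points to either side. These intervals cover counting error only. Both subunits shared the pattern: large-subunit genes averaged 1.98% in BEZO, 1.95% in BaAQ and 1.82% in Control, and small-subunit genes 1.18, 1.2 and 1.11%, in the same order of groups. These shares are of library totals, without TMM factors. On library totals the median log2 fold change against Control of all tested genes was 0.036 in BEZO and 0.057 in BaAQ. For the members it was 0.114 and 0.112. A share of the messages in a pool of whole embryos cannot tell more cells with many ribosomes from more message in each cell.

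**Figure D1:**
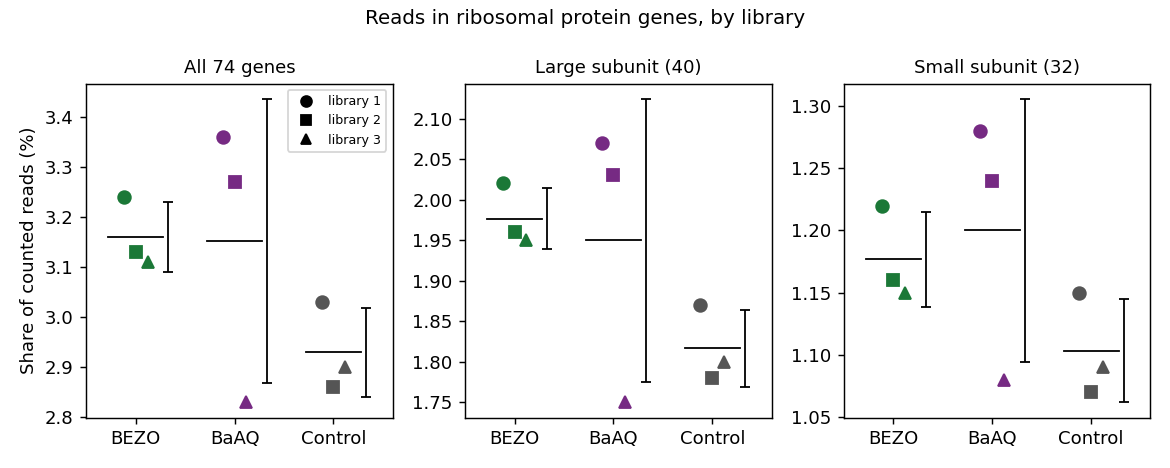
Share of counted reads in all 74 ribosomal protein genes (left), the 40 large-subunit genes (middle) and the 32 small-subunit genes (right), in percent, for each library of the BEZO, BaAQ and Control groups. Symbols mark libraries 1 to 3, lines the group mean and bars the SD, and the axes do not start at 0. Library BaAQ 3, at 2.83% of reads for all members, lies below the other 2 BaAQ libraries, at 3.36 and 3.27%.

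Taken gene by gene, members moved together within a library. Relative to each gene's Control mean, the median member stood at 0.11, 0.11 and 0.025 log2 units in the BEZO libraries. It stood at 0.15, 0.14 and -0.095 in the BaAQ libraries and at 0.058, -0.019 and -0.049 in the Control libraries. The number of members above their Control mean was 65, 58 and 43 of 74 in BEZO, 68, 67 and 23 in BaAQ, and 62, 33 and 18 in Control. The median over all tested genes stayed within 0.007 of 0 in every library, beside these offsets of the members. The offset of Control 1 was larger than that of BEZO 3. Library BaAQ 3 was the lowest of its group for 68 of 74 members and the highest for 2, rps19bp1 and RPS28. In BaAQ 3 the translation elongation factor genes were also low. The 10 matched genes summed to 9519 CPM of the library total, without TMM factors, against 11050 and 11010 in BaAQ 1 and 2. The Control libraries had 10260 to 10310. On normalised CPM, the median of the 9 tested genes relative to their Control mean was 0.052, 0.059 and -0.047 log2 units in BaAQ 1, 2 and 3. In the Control libraries it was -0.01 to 0.005. Whether RNA quality, stage or vial underlies the standing of BaAQ 3 was not tested.

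**Figure D2:**
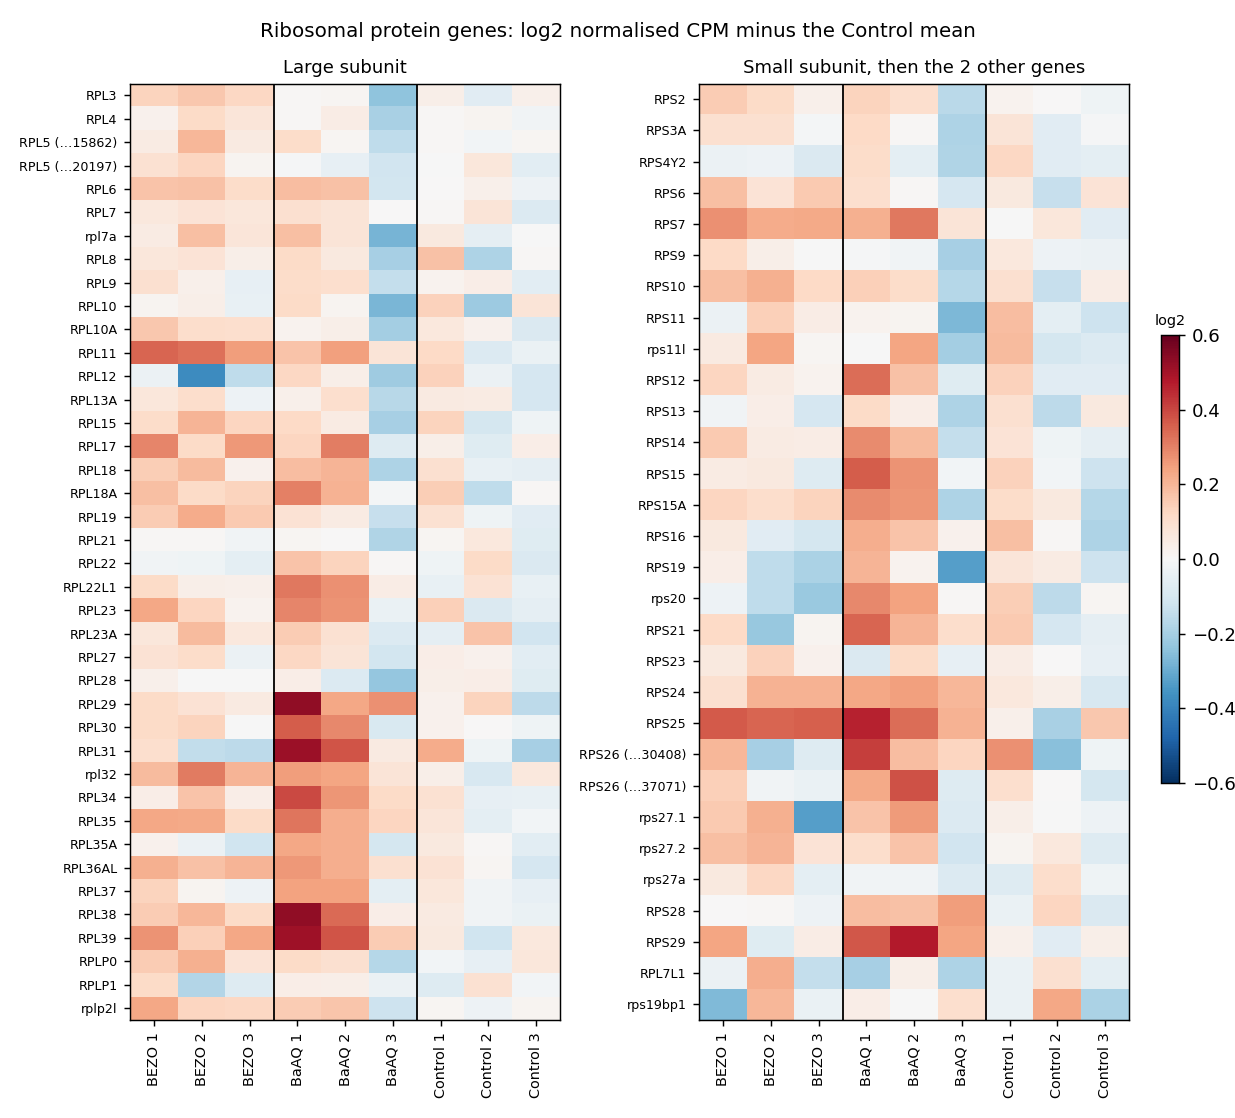
Log2 normalised CPM of each ribosomal protein gene minus its Control mean, for 70 of the 74 genes, with libraries as columns (BEZO, BaAQ, Control) and genes as rows, large subunit left and small subunit right. Columns BaAQ 1 and BaAQ 2 are mostly above the Control mean (68 and 67 of 74 genes) and BaAQ 3 is mostly below it (51 of 74).

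In BEZO embryos 4 members rose against Control and none fell: RPL11, RPS25, RPS7 and rpl32. These are 5.41% of the 74 members, beside 6.44% of all tested genes called in this comparison, 3.09% called higher and 3.35% called lower. The share of members that passed the test was thus near the background. The members leaned upward by small amounts, with a median log2 fold change of 0.077 (all tested genes -0.001) and 56 of 74 above 0 (75.7%, against 49.8% of all tested genes). Without Control 3 the median was 0.048, with 50 of 74 above 0. The largest rise was 0.35 on the log2 scale. At an unadjusted p under 0.05, 15 members were higher and 1 lower, where 9.53 and 10% of all tested genes were. The libraries of BEZO and Control did not overlap for 24 members, 23 of them higher in BEZO and 1 lower, against 12.3 and 12.4% of all tested genes. DESeq2 called 5 members, the same 4 and RPL36AL, beside 3.52% of the 27872 genes it gave a p-value (1.66% called higher).

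RPL11, a partner of RPL5 in the 5S particle and a binder of MDM2, had 250.4, 247.5 and 234.6 CPM in BEZO and 213.9, 186.1 and 191.5 CPM in Control. Every BEZO library exceeded every Control library. The log2 fold change was 0.31 ± 0.067 (SE), with an edgeR quasi-likelihood Benjamini-Hochberg adjusted p of 0.00604, and it stayed past the threshold under all 18 alternatives. RPS25, a small-subunit head protein that some viral and cellular internal ribosome entry sites require, had 239.8, 236.7 and 237.9 CPM in BEZO and 189.5, 161.8 and 207.9 CPM in Control. The groups did not overlap, and the spread in BEZO was far narrower than in Control. Its log2 fold change of 0.35 ± 0.08 (adjusted p 0.00877) missed the threshold only when Control 2 was left out. RPS7, a Diamond-Blackfan anaemia gene that also binds MDM2 in mammals, had 494.8, 477.1 and 479.8 CPM in BEZO and 408.8, 429.3 and 390.3 CPM in Control. The groups were apart, at 0.24 ± 0.066 (adjusted p 0.0306). The gene rpl32, for a protein of the large subunit, had 274.9, 299.0 and 277.7 CPM in BEZO and 246.8, 225.2 and 251.3 CPM in Control. These were apart as well, at 0.24 ± 0.067 (adjusted p 0.0371). Leaving out any 1 of the 6 BEZO and Control libraries left 2 called members, with 3.97 to 5.95% of all tested genes called. The gene rpl32 lost its call in each of these fits, and RPS7 in all but that without Control 2. Their adjusted p reached 0.175 and 0.145. Leaving out BaAQ 3 gave 10 called members (9 higher and 1 lower), with 7.85% of all tested genes called. BaAQ 3 is in neither group compared here, and enters through the low-count filter, the scaling, the adjustment and the shared estimate of the spread.

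In BaAQ embryos 9 members rose against Control and none fell: RPL29, RPL34, RPL35, RPL38 and RPL39 of the large subunit and RPS24, RPS25, RPS28 and RPS29 of the small subunit. That is 12.2% of members, beside 10.2% of all tested genes called in this comparison, 4.82% called higher and 5.41% called lower. The median log2 fold change was 0.057 (all tested genes 0.004), 53 of 74 members were above 0, and values ran from -0.12 to 0.37. At an unadjusted p under 0.05, 22 members were higher and 0 lower, where 11.6 and 12% of all tested genes were. The libraries of BaAQ and Control did not overlap for 11 members, all higher in BaAQ, against 13.3% of all tested genes higher and 14.1% lower. DESeq2 called 11 members, the same 9 with RPL36AL and RPS7, beside 5.41% of the 27872 genes it gave a p-value (2.41% called higher). BaAQ and BEZO were both set against the same Control libraries, so a shared direction is partly fixed by those libraries. RPS25, the member past the threshold in both comparisons, had 256.0, 233.7 and 214.6 CPM in BaAQ, and its log2 fold change was 0.33 ± 0.08 (adjusted p 0.00982).

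The largest rises included genes for some of the smallest proteins of the ribosome. RPS25, given above at 0.33, rose more than RPL38 below, and RPL31 stood at 0.321 without passing (adjusted p 0.0601). RPL39, a tiny protein that lines the exit tunnel of the large subunit, had 190.8, 174.0 and 149.2 CPM in BaAQ and 139.7, 123.3 and 140.0 CPM in Control. The groups were apart, with BaAQ 3 nearest to Control, and the log2 fold change was 0.35 ± 0.08 (adjusted p 0.0063). RPS29, a small zinc-binding protein of the small-subunit head, had 62.63, 67.37 and 57.03 CPM in BaAQ and 49.34, 46.0 and 49.55 CPM in Control, a log2 fold change of 0.37 ± 0.086 (adjusted p 0.00826). Both genes passed under all 18 alternatives. RPL29, a large-subunit surface protein, had 375.8, 305.0 and 314.7 CPM in BaAQ and 264.6, 285.1 and 233.0 CPM in Control. It was apart at 0.35 ± 0.08 (adjusted p 0.00686), with BaAQ 1 well above the rest. RPL38, which mouse genetics ties to the translation of Hox messages in the embryo, had 194.0, 169.8 and 137.9 CPM in BaAQ and 139.4, 132.4 and 130.6 CPM in Control. BaAQ 3 lay inside the Control range, and the log2 fold change was 0.32 ± 0.087 (adjusted p 0.0218).

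The remaining 4 rose by less. RPL34 (0.265 ± 0.072, adjusted p 0.0215), RPL35 (0.23 ± 0.065, adjusted p 0.0304) and RPS24 (0.23 ± 0.062, adjusted p 0.0228) were apart from Control. RPL35 sits at the mouth of the exit tunnel, and RPS24 is a Diamond-Blackfan anaemia gene. RPS28, also a Diamond-Blackfan anaemia gene, had 325.4, 323.0 and 340.2 CPM in BaAQ and 277.7, 312.6 and 269.1 CPM in Control (0.2 ± 0.064, adjusted p 0.0493). Here BaAQ 3 was the highest library of its group, and the gene lost its call under 11 of 18 alternatives. How many members passed moved with the libraries used. Without BaAQ 3, 25 members rose and none fell (7.23% of all tested genes called), 69 of 74 were above 0 and the median was 0.13. The 25 held 8 of the 9 above, without RPS28. Without BaAQ 1 the count was 2 and the median 0.031. Without BaAQ 2 the count was 4 and the median 0.025. In each, 43 of 74 members were above 0. Of all tested genes, 9.1% were called without BaAQ 1 and 8.31% without BaAQ 2. The median was 0.093 without Control 2, with 48 above 0. The count was 3 without Control 3 and 5 without Control 2 (6.74 and 6.87% of all tested genes called). RPL39 and RPS29 passed in each of these.

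**Figure D3:**
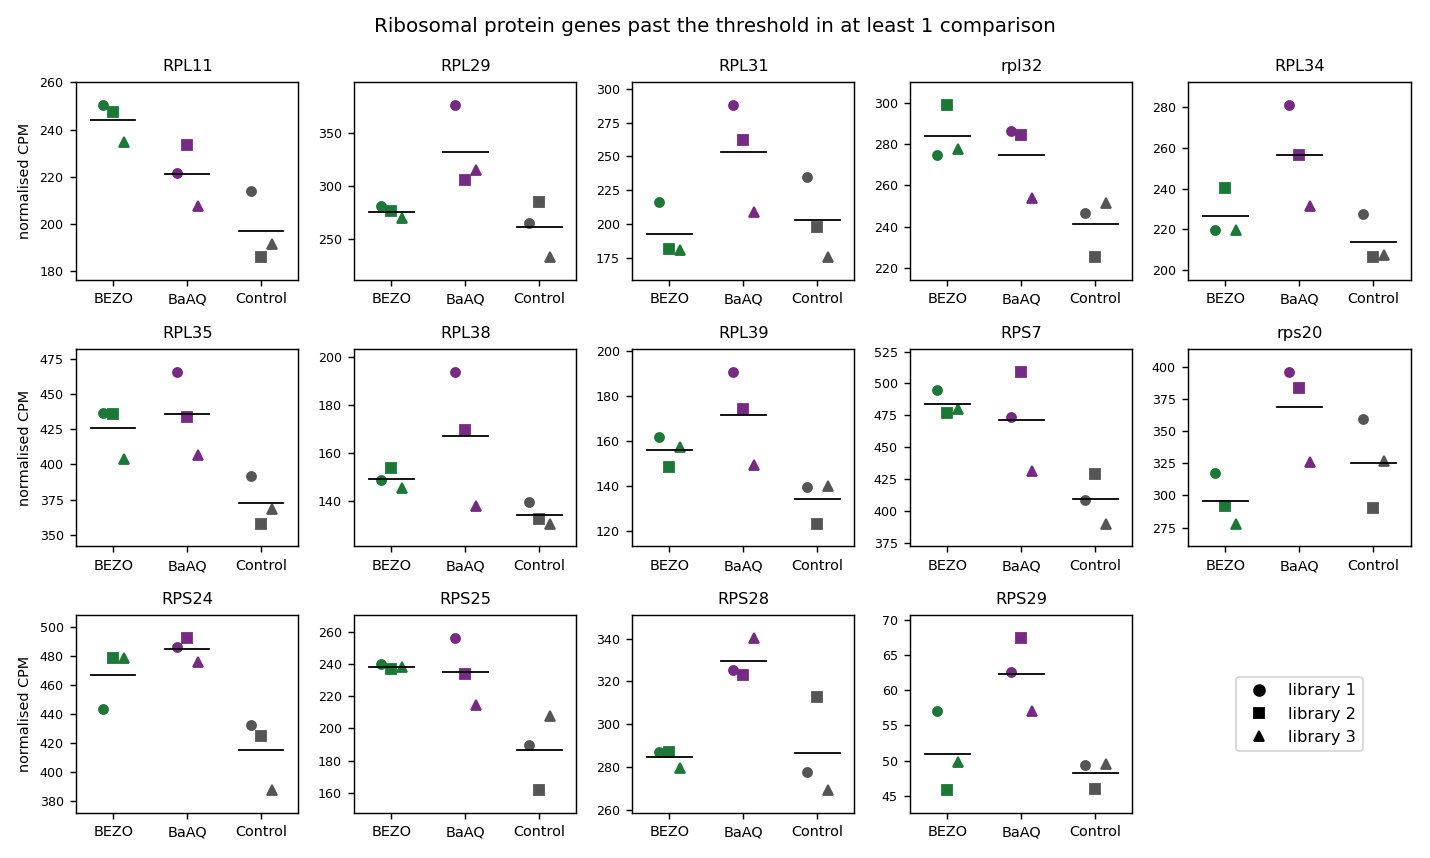
Normalised CPM in each library of the 14 ribosomal protein genes past the threshold in at least 1 comparison, with BEZO, BaAQ and Control from left to right. Symbols mark libraries 1 to 3 and lines the group mean, and axes differ between genes and do not start at 0. BEZO and Control are apart for RPL11, RPS25, RPS7 and rpl32, and BaAQ 3 is the lowest BaAQ library for 12 of the 14 genes but the highest for RPS28 (340.2 CPM).

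The rises in BaAQ were spread unevenly along the list in a way that follows the proteins' numbers. Ribosomal proteins were numbered largely by their place on gels, so that higher numbers mostly mean smaller proteins. Over the 37 large-subunit genes with a number, Spearman's rho between that number and the log2 fold change was 0.71 for BaAQ against Control and 0.087 for BEZO against Control. The 18 genes numbered above 20 had a median of 0.19 in BaAQ and held all 5 called large-subunit genes, while the 19 numbered up to 20 had a median of -0.006 and held 0. For BEZO the same medians were 0.082 and 0.10. Over the 32 small-subunit genes rho was 0.50 for BaAQ and -0.14 for BEZO, and the 15 genes numbered above 15 had a median of 0.18 in BaAQ against 0.017 for the 17 others. RPL3 and RPL4, among the largest proteins of the ribosome, stood at -0.071 and -0.044 in BaAQ.

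The pattern was present in all 3 BaAQ libraries, BaAQ 3 included. Against the Control mean, rho for the large subunit was 0.73, 0.65 and 0.65 in BaAQ 1, 2 and 3, against -0.17 to 0.20 in the Control libraries and -0.030 to 0.25 in the BEZO libraries. For the small subunit it was 0.33, 0.51 and 0.53 in BaAQ, against -0.23 to 0.24 in Control and -0.15 to 0.13 in BEZO. In BaAQ 3 the large-subunit genes numbered above 20 had a median of 0.023 and those up to 20 a median of -0.17, against 0.28 and 0.11 in BaAQ 1. This relation was looked for after the values were seen, runs across genes that share libraries and are not independent replicates, and has no test. Genes with higher numbers also had fewer reads: rho between the number and the gene's mean share of reads was -0.64 for the large subunit and -0.42 for the small. The part of read depth in the result was not tested, and message lengths were not used here.

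**Figure D4:**
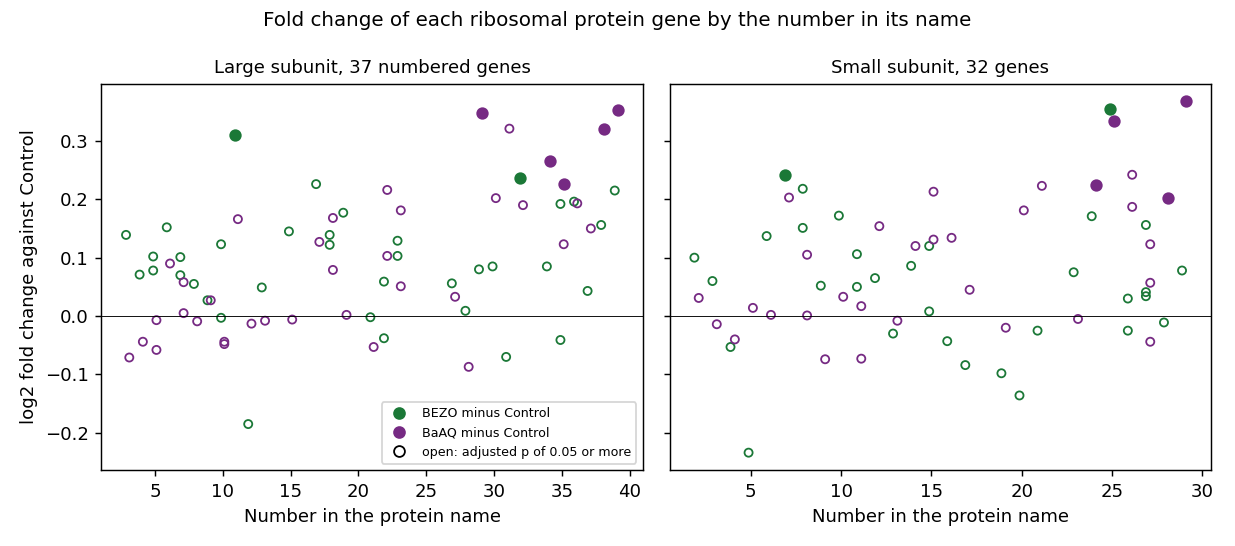
Log2 fold change against Control (vertical axis) of each numbered ribosomal protein gene, by the number in its name (horizontal axis), for the large subunit (left, 37 genes) and the small subunit (right, 32 genes). Points are BEZO minus Control and BaAQ minus Control, filled where the adjusted p was under 0.05. BaAQ points climb with the number (rho 0.71 left and 0.50 right) and BEZO points do not (rho 0.087 and -0.14).

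Set directly against each other, the compounds gave 2 called members, both lower in BEZO. This is 2.7% of members, beside 4.84% of all tested genes called in this comparison, 2.27% called higher and 2.56% called lower. At an unadjusted p under 0.05, 6 members were higher and 14 lower in BEZO, where 8.75 and 9.26% of all tested genes were. RPL31, an exit-tunnel protein and Diamond-Blackfan anaemia gene, had 216.1, 182.1 and 180.7 CPM in BEZO and 287.9, 261.9 and 209.2 CPM in BaAQ. The groups overlapped through BaAQ 3, and the log2 difference was -0.39 ± 0.106 (95% interval -0.61 to -0.17, adjusted p 0.0382). The gene rps20, for a protein of the small-subunit head, had 317.6, 292.1 and 278.1 CPM in BEZO and 396.6, 383.6 and 326.5 CPM in BaAQ. These groups were apart, at -0.32 ± 0.082 (adjusted p 0.0289). Neither gene passed against Control in BEZO or BaAQ. DESeq2 called 3 members, rps20, RPL29 and RPS28, all lower in BEZO, and did not call RPL31 (adjusted p 0.193). It called 2.5% of the 27872 genes it gave a p-value. For 72 of the 74 members the 95% interval of the difference lay within 1.5-fold in either direction, which held for 12160 of the 18860 tested genes. The median difference was 0.016 (all tested genes 0.001), and 39 members were higher and 35 lower in BEZO. Without BaAQ 3 the median turned to -0.047 with 22 of 74 higher in BEZO, and without BaAQ 1 it was 0.062 with 49 higher. It was also 0.029 without BaAQ 2, 0.04 without BEZO 3 and 0.005 without BEZO 2. These counts rested on single libraries: 0 members passed without BEZO 2, BEZO 3 or BaAQ 1, 1 without BaAQ 2 and 4 without Control 2. Of all tested genes, 2.8, 3.21, 3.97, 3.42 and 4.66% were called in these fits, in that order. Without BaAQ 3, 12 members passed, all lower in BEZO (3.5% of all tested genes called). RPL29, RPL34, RPL38 and RPS29, which rose in BaAQ, were among those 12. With all libraries the difference was -0.27 for RPL29 (adjusted p 0.0604) and -0.29 for RPS29 (adjusted p 0.0617), which edgeR did not call. DESeq2 called RPL29 (adjusted p 0.041) and not RPS29 (adjusted p 0.0791), and 7 of 18 alternatives called RPL29, with adjusted p from 0.00457 to 0.276.

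By place in the ribosome, the groups below are small, and their counts are read against 6.44% of all tested genes called in BEZO against Control, 10.2% in BaAQ against Control and 4.84% between the compounds. In the 5S particle RPL11 rose in BEZO. Its level in BaAQ was 221.7, 233.7 and 207.8 CPM, 0.17 above Control on the log2 scale (adjusted p 0.131), and the difference between the compounds did not pass (0.14, adjusted p 0.261). Its partner RPL5 was counted as 2 genes, whose reads may be divided between near-identical copies. Copy ENSDARG00000015862 stood at 0.10 in BEZO and -0.007 in BaAQ, and copy ENSDARG00000020197 at 0.078 and -0.058.

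Near the peptidyl transferase region and the A site, RPL3, RPL8 and RPL10 had 0 called members of 3 in each comparison with edgeR or DESeq2. Without adjustment, at p under 0.05, 0 differed from Control with either compound and 1 was higher in BEZO than in BaAQ. RPL10A, of the L1 stalk, stood at 0.12 in BEZO and -0.048 in BaAQ (adjusted p 0.34 and 0.735). Log2 fold changes of the first 3 ran from -0.003 to 0.14 in BEZO and from -0.071 to -0.009 in BaAQ. RPL3, which shapes the catalytic core, had 1253, 1276 and 1243 CPM in BEZO, 1145, 1152 and 964.8 CPM in BaAQ and 1169, 1090 and 1167 CPM in Control. All 3 BEZO libraries exceeded all others, yet the change of 0.14 against Control did not pass (adjusted p 0.271), nor did that of 0.21 against BaAQ (adjusted p 0.0902). The P stalk, which recruits the elongation factors, had 0 called members of 4 by both tools: RPLP0, RPLP1, rplp2l and RPL12. Without adjustment, at p under 0.05, 1 was higher in BEZO than in Control, 0 differed between BaAQ and Control and 0 between the compounds. RPL12, at its base, was the lowest large-subunit gene in BEZO at -0.185 (adjusted p 0.266), with BEZO 2 at 333.5 CPM below the other 2 BEZO libraries at 422.9 and 389.8.

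Of 8 exit-tunnel genes, 0 passed in BEZO, by either tool, with 4 higher at an unadjusted p under 0.05, and 2 rose in BaAQ (RPL35 and RPL39), with medians of 0.14 and 0.115. The others were RPL4, RPL17, RPL19, RPL22, RPL23A and RPL31, from -0.070 to 0.23 in BEZO and from -0.044 to 0.32 in BaAQ. The 0.32 was RPL31, which missed the threshold against Control (adjusted p 0.0601) and was the 1 exit-tunnel gene called between the compounds. RPL23, at the face between the subunits, stood at 0.13 in BEZO and 0.18 in BaAQ (adjusted p 0.437 and 0.198). Of 9 genes along the decoding site and the messenger channel, namely RPS2, RPS9, RPS14, RPS15, rps20, RPS23, rps27a and both copies of RPS26, 0 passed against Control with either compound or either tool. Without adjustment, at p under 0.05, 0 differed in BEZO and 3 were higher in BaAQ. Between the compounds rps20 was called. RPS6, the protein that S6 kinase phosphorylates, had 782.6, 732.4 and 770.3 CPM in BEZO, 742.0, 694.1 and 644.8 CPM in BaAQ and 719.2, 627.9 and 730.9 CPM in Control. The BEZO libraries lay just above all Control libraries and overlapped BaAQ, at 0.14 against Control (adjusted p 0.287), and BaAQ stood at 0.002.

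Of 18 genes tied to Diamond-Blackfan anaemia in people, 2 rose in BEZO (RPL11 and RPS7) and 4 rose in BaAQ (RPL35, RPS24, RPS28 and RPS29), and none fell, where 3.09 and 4.82% of all tested genes were called higher in these comparisons. RPS19, the first of these genes known, had 298.5, 260.8 and 254.1 CPM in BEZO, 334.1, 294.0 and 230.7 CPM in BaAQ and 305.0, 300.4 and 266.1 CPM in Control. The 3 groups overlapped, and the changes of -0.098 and -0.020 did not pass (adjusted p 0.657 and 0.934). The median over the 18 genes was 0.078 in BEZO and 0.14 in BaAQ. RPL15, RPL18, RPL27, RPL35A, RPS10 and the RPS26 copies also did not pass in either. The 6 paralog or variant forms, RPL7L1, RPL22L1, RPL36AL, rplp2l, rps27.1 and rps27.2, gave 0 calls in any comparison with edgeR. RPL36AL, which DESeq2 called against Control with both compounds, stood at 0.196 in BEZO (adjusted p 0.0776) and 0.19 in BaAQ (adjusted p 0.0627), with both groups apart from Control. RPL22L1 stood at 0.22 in BaAQ (adjusted p 0.0607).

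The 5 members with most reads were RPL4, RPLP1, RPL3, RPS2 and RPL6, at 0.0895 to 0.12% of each library's reads on average, and 0 of them passed in any comparison. Of the members with fewest reads, RPS29 passed in BaAQ, and rps11l, RPL7L1 and rps19bp1 did not pass in any comparison. Leaving out rps19bp1 and RPL7L1, which are not parts of the mature ribosome, left the counts of called members at 4, 9 and 2.

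Genes for factors that assemble ribosomes were counted apart from the genes of the ribosome's own proteins. Of 73 ribosome assembly genes, 3 rose and 0 fell in BEZO against Control, which is 4.11% of them, under the 6.44% of all tested genes called there. In BaAQ against Control 0 rose and 12 fell (16.4%, beside 10.2% of all tested genes called and 5.41% called lower). Between the compounds 5 were higher and 0 lower in BEZO (6.85%, beside 4.84%). The medians were 0.028, -0.185 and 0.19 on the log2 scale, beside -0.001, 0.004 and 0.001 for all tested genes. In BEZO the 3 were EIF6, which keeps new large subunits from joining early, at 0.54 ± 0.111 (adjusted p 0.00385), DDX21, a nucleolar RNA helicase, at 0.27 (adjusted p 0.0182), and GTPBP4, a large-subunit assembly GTPase, at 0.24 (adjusted p 0.0125). In BaAQ the falls with the smallest p were in RRS1, BYSL, DKC1 and nop2. RRS1, a 5S particle loading factor in yeast, stood at -0.47 (adjusted p 0.00639) and BYSL, a small-subunit factor, at -0.52 (adjusted p 0.00791). DKC1, the pseudouridine synthase dyskerin, stood at -0.32 (adjusted p 0.0116) and nop2, a ribosomal RNA methyltransferase, at -0.395 (adjusted p 0.0128).

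BYSL had 32.5, 36.57 and 27.29 CPM in BEZO, 26.75, 26.75 and 19.01 CPM in BaAQ and 35.65, 35.6 and 32.55 CPM in Control. All BaAQ libraries lay below all Control libraries, and BEZO reached from below the Control range to above it. The nucleolar chaperone gene npm1a had 108, 140.3 and 123.2 CPM in BEZO, 96.59, 98.26 and 99.68 CPM in BaAQ and 115.9, 121.7 and 124.7 CPM in Control. Every BaAQ library was below every other library, with a log2 difference of 0.33 for BEZO over BaAQ (adjusted p 0.016). The count of 12 rested on the libraries used: it was 5 without Control 2, 6 without Control 3, 6 without BaAQ 1 and 8 without BaAQ 3. Of all tested genes, 6.87, 6.74, 9.1 and 7.23% were called in these fits, in that order. The count of 5 between the compounds was 8 without BEZO 1, 0 without BEZO 2, 1 without BaAQ 2 and 3 without BaAQ 1, BaAQ 3 or Control 1, and that of 3 in BEZO was 1 without BEZO 1 or Control 1. Markers of proliferating cells fell along with the assembly genes in BaAQ, where 7 of 16 were called lower than Control (5.41% of all tested genes). In BEZO 1 of 16 markers fell and 0 rose (3.35% of all tested genes called lower), while 3 assembly genes rose and 0 fell. Without TMM factors, the 17 matched markers summed to 1351 to 1500 CPM in BEZO, 1238 to 1322 CPM in BaAQ and 1467 to 1533 CPM in Control. The part of these markers in the result was not tested. Of 10 RNA polymerase I genes, whose enzyme copies the ribosomal RNA, 0 passed in any comparison, with 0 under all 18 alternatives, DESeq2 included, and 1 lower in BaAQ than in Control at an unadjusted p under 0.05.

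The p53 pathway list, which free RPL5 and RPL11 can act on, held the largest share of calls against Control among the 8 ribosome and translation lists. Of 17 tested genes, 7 rose and 0 fell in BEZO, and 8 rose and 0 fell in BaAQ (41.2 and 47.1% of the list, beside 6.44 and 10.2% of all tested genes), with 0 different between the compounds by edgeR or DESeq2 (3 higher and 3 lower in BEZO at an unadjusted p under 0.05). The medians were 0.22 in BEZO and 0.34 in BaAQ. The gene mdm2, for the ligase itself and a p53 target, had 52.27, 59.49 and 56.12 CPM in BEZO, 53.77, 48.89 and 53.95 CPM in BaAQ and 35.97, 37.77 and 34.15 CPM in Control. Both exposed groups lay wholly above Control, at 0.64 ± 0.079 (adjusted p 2.31e-05) in BEZO and 0.54 ± 0.08 (adjusted p 0.000128) in BaAQ. The cyclin gene CCNG1, another target, rose by 0.50 (adjusted p 6.84e-05) in BEZO and 0.34 (adjusted p 0.00222) in BaAQ. The stress gene sesn2 rose by 1.37 in BEZO (adjusted p 0.000311) and 0.75 in BaAQ (adjusted p 0.0388). It had 7.209, 9.364 and 15.62 CPM in BaAQ and 7.003, 4.839 and 7.266 CPM in Control. Library BaAQ 1 thus lay inside the Control range, and BaAQ 3 was the highest of its group. The death genes bbc3 and casp8 rose by 1.07 and 0.71 in BEZO (adjusted p 0.00426 and 0.00531) and by 1.32 and 0.85 in BaAQ (adjusted p 0.000427 and 0.000787). The count in BaAQ was 5 without BaAQ 3, 5 without Control 2 and 4 without Control 3. Of all tested genes, 7.23, 6.87 and 6.74% were called in these fits, in that order. Between the compounds 1 gene of the list differed without BaAQ 3. Whether the level of RPL11 bears on these genes was not tested.

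Among translation genes outside the ribosome, initiation factors passed in both directions. Of 45 initiation factor genes, 3 rose in BEZO (EIF4A2, EIF2B4 and the EIF2S1 copy ENSDARG00000052178) and 1 fell (the EIF4G3 copy ENSDARG00000074331), while in BaAQ 1 rose (EIF4A2) and 4 fell. That is 8.89 and 11.1% of the list, beside 6.44 and 10.2% of all tested genes. At an unadjusted p under 0.05, 4 were higher and 5 lower in BEZO, and 2 were higher and 14 lower in BaAQ, with medians of -0.031 and -0.077. EIF4A2, a helicase that unwinds messages for the scanning ribosome, had 31.07, 27.57 and 32.4 CPM in BEZO, 31.53, 28.82 and 28.05 CPM in BaAQ and 23.66, 23.18 and 23.32 CPM in Control. It rose by 0.38 in BEZO (adjusted p 0.013) and 0.34 in BaAQ (adjusted p 0.0206), with no overlap with Control. EIF4G1, the scaffold of the cap-binding complex, fell by 0.31 in BaAQ (adjusted p 0.00396), and EIF2B5, a subunit of the exchange factor that integrated stress signalling inhibits, fell by 0.36 (adjusted p 0.00886). The difference between the compounds passed for EIF2B5 (0.39, adjusted p 0.0098), a call lost without BEZO 2 or BaAQ 2. The list's counts of 4 in BEZO and 5 in BaAQ moved to 0 and 2 without Control 3, to 1 and 2 without Control 2, and in BEZO to 1 without BEZO 3, 2 without BEZO 1 or 2, and 6 without BaAQ 3. In BaAQ the count was 3 without BaAQ 1. Without Control 3, 4.36% of all tested genes were called in BEZO and 6.74% in BaAQ, and without Control 2, 4.34 and 6.87%. Of 9 elongation factor genes, 0 passed in any comparison with either tool, and 1 was higher in BEZO than in BaAQ at an unadjusted p under 0.05.

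Other genes whose messages carry the same kind of start sequence gave a mixed result. Of 11, 1 rose in BEZO and 2 rose and 2 fell in BaAQ (9.09 and 36.4% of the list, beside 6.44 and 10.2% of all tested genes). The intermediate filament gene VIM (ENSDARG00000010008) rose in both, by 0.32 (adjusted p 0.00221) in BEZO and 0.205 (adjusted p 0.0399) in BaAQ. The poly(A)-binding protein gene pabpc1b fell by 0.215 in BaAQ (adjusted p 0.0485), as did the splicing regulator gene hnrnpa1a, by 0.24 (adjusted p 0.0431). The 4 calls in BaAQ became 0 to 2 with any 1 library left out.

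Of 18 genes of the mTORC1 pathway, 3 rose and 1 fell in BEZO, and 4 rose and 0 fell in BaAQ. That is 22.2% of the list in each, beside 6.44% of all tested genes in BEZO and 10.2% in BaAQ. Those that rose with both compounds were akt1s1, for the mTORC1 inhibitor PRAS40, by 0.335 (adjusted p 0.00375) in BEZO and 0.40 (adjusted p 0.000503) in BaAQ, and EIF4EBP3 (ENSDARG00000041607), for a cap-binding repressor, by 0.55 (adjusted p 0.0011) and 0.51 (adjusted p 0.00157). DDIT4, for a stress-induced inhibitor of mTORC1, rose by 0.445 in BEZO (adjusted p 0.0419), and rps6kb1a, for an S6 kinase, fell by 0.54 in BEZO (adjusted p 0.0113). In BaAQ the TSC1 copy ENSDARG00000057918, for a brake on the pathway, rose by 0.44 (adjusted p 0.00132), and the PDPK1 copy ENSDARG00000062304, for an activating kinase, rose by 0.93 (adjusted p 0.0159). The 4 calls in BEZO were 2 without BEZO 1 or Control 3.

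The mitochondrial ribosome, built from other proteins that the nucleus also encodes, had medians below 0. Of 64 tested genes, 0 rose and 1 fell in BEZO, and 1 rose and 5 fell in BaAQ. That is 1.56 and 9.38% of the list, beside 6.44 and 10.2% of all tested genes called. At an unadjusted p under 0.05, 1 was higher and 11 lower in BEZO, and 1 higher and 16 lower in BaAQ. Of all tested genes, 10% were lower in BEZO and 12% in BaAQ at that p, with 9.53 and 11.6% higher. The list's medians were -0.098 and -0.11. MRPL38 fell in both, by 0.31 (adjusted p 0.0367) in BEZO and 0.38 (adjusted p 0.00732) in BaAQ. MRPL12, a large-subunit protein of the mitochondrial ribosome, fell by 0.59 in BaAQ (adjusted p 0.00406), where mrps21, of the small subunit, rose by 0.39 (adjusted p 0.0354). The gene mrps21 was also the 1 member of this list that differed between the compounds, at -0.475 for BEZO minus BaAQ (adjusted p 0.023), a call lost without BEZO 1, BEZO 3 or BaAQ 1. The fall in BEZO was lost without BEZO 1, BEZO 2, Control 2 or Control 3, and the 6 calls in BaAQ were 3 without BaAQ 2.

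**Figure D5:**
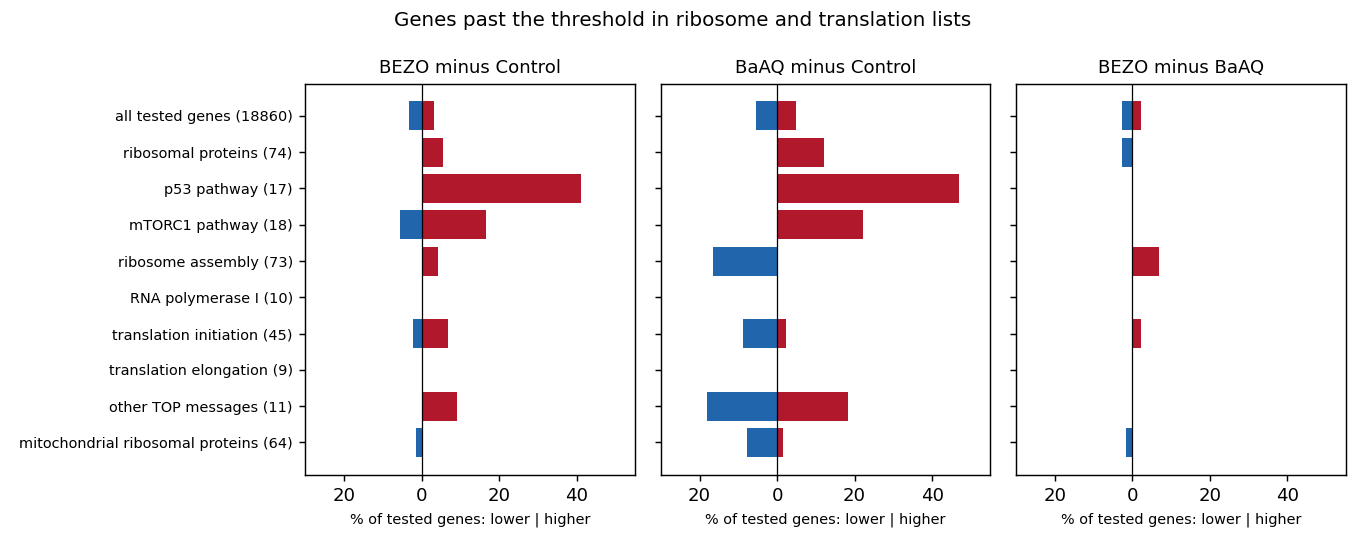
Percent of the tested genes of each list that passed an adjusted p of 0.05, lower to the left and higher to the right of 0, for BEZO minus Control, BaAQ minus Control and BEZO minus BaAQ, with all tested genes on top and the number tested in brackets. The p53 list is called highest against Control (7 and 8 of 17 genes), and ribosome assembly genes are called lower in BaAQ (12 of 73) while ribosomal protein genes are not (0 of 74).

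Tissue markers also moved between the groups. Their list sums are CPM of library totals without TMM factors, over all matched genes, also those not tested. Against Control, 6.44% of all tested genes were called in BEZO and 10.2% in BaAQ. In BEZO all 8 lens genes and 6 of 9 photoreceptor genes fell against Control. In BaAQ 0 of 8 lens genes and 3 of 9 photoreceptor genes fell. The lens list summed to 1403 to 1547 CPM in BEZO, 1764 to 2144 CPM in BaAQ and 1855 to 2052 CPM in Control, and the photoreceptor list to 204.4 to 257.5, 320.6 to 347.8 and 374.7 to 389 CPM in the same order of groups. In BaAQ 4 of 7 liver and yolk genes and 2 of 7 epidermis genes fell, and in BEZO 2 of 7 and 1 of 7 fell. No gene of the lens, photoreceptor, liver and yolk or epidermis lists was called higher against Control. The epidermis list summed to 20730 to 21220 CPM in BEZO, 14710 to 17000 CPM in BaAQ and 19700 to 20720 CPM in Control. The liver and yolk list summed to 12370 to 13510 CPM in BEZO, 9677 to 10590 CPM in BaAQ and 12610 to 12860 CPM in Control. Of 6 red blood cell genes, 1 rose and 3 fell in BEZO, and 3 rose and 0 fell in BaAQ against Control. They summed to 443.4 to 549.6 CPM in BEZO, 725.1 to 1100 CPM in BaAQ and 820.7 to 864.6 CPM in Control, with BaAQ 3 again the lowest of its group. Their part in the ribosomal protein results was not tested.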

How the data were processed

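The deposited table holds raw counts of reads per Ensembl gene for 9 libraries, with no normalization. The submitters' processing notes name CASAVA 1.8, FastQC, TopHat2, HTSeq, edgeR and the build Zv9; the annotation release and strand setting are not given in the sources used here, so reads of a gene and an overlapping or near-identical gene cannot be told apart. Symbols came from a table of gene identifiers (20769 of 32434 matched). The model was edgeR's (version 4.0.16, R 4.3.3; filterByExpr, TMM, quasi-likelihood, 3 group means over 9 libraries, 6 residual degrees of freedom, common biological coefficient of variation 7.23%). P-values were Benjamini-Hochberg adjusted over all 18860 tested genes, with a threshold of 0.05. The fit was tested on simulated data. The pass condition concerned only changes far larger than those of the members, so it does not speak to changes of their size.

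Members and gene lists were chosen with earlier results of these data known, so list counts are descriptions. List members were matched by symbol, and wrong matches were taken out, as were RPL10A, RPL23 and RPL38 from groups by place in the ribosome where they do not, or not surely, belong; this was done after values were seen. Genes were named by rule: up to 12 called members per direction with the smallest p, the 5 with most and the 5 with fewest reads, members of the role lists, and up to 4 called genes per other list. RPL36AL was named, and protein numbers were used, after values were seen. Results of a few named genes are not reported here. Alternatives included DESeq2 1.42.0, other scaling and filters, the replicate number as a block, and each library left out. Tables and figures used Python 3.11.15, pandas 2.3.3 and matplotlib 3.10.9. No library was left out of the fit as given. Sequences and coordinates were not used here.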

Additional observations from a re-analysis of the deposited data

How the results depend on the processing

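For the 14 members called in any comparison, 227, 203 and 220 of 252 values each (BEZO against Control, BaAQ against Control, BEZO against BaAQ) kept their direction and side of the threshold over 18 alternatives. Signs turned only for small differences. RPS28 in BEZO against Control became 0.028 with library totals only, 0.002 without BEZO 3 and 0.057 without Control 2 (range with each library left out -0.055 to 0.057). RPS29 became -0.014 without BEZO 1 (range to 0.148) and RPL31 0.046 without Control 1 (range from -0.164) in the same comparison. Between the compounds RPL35 became 0.002 without BEZO 3 and 0.018 without BaAQ 1 (range from -0.081), and RPS25, RPS7 and rpl32 became -0.042, -0.023 and -0.008 without BaAQ 3 (ranges to 0.088, 0.096 and 0.078).

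Counts of called members for BEZO against Control were 7 with library totals only, 9 with only those groups in the fit, 2 at an adjusted p under 0.01, and 2 to 10 with each library left out. For BaAQ against Control they were 16 with library totals only, 14 with no filter on low counts, 4 at 0.01, and 2 to 25 with each library left out. For BEZO against BaAQ they were 4, 9 and 0 under the same settings, and 0 to 12 with each library left out. Over all genes, the threshold of 0.01 gave 620, 978 and 409 calls, each library left out gave 761 to 1502, 1276 to 1992 and 531 to 883, and no filter gave 1389 between the compounds. Library totals only moved the median of all genes by 0.037, 0.053 and -0.017. Without mitochondrial genome reads the share was 3.286% in BEZO and 3.053% in Control. With each library left out it was 3.119 to 3.189% in BEZO, 3.053 to 3.316% in BaAQ and 2.881 to 2.963% in Control. The cause of these changes was not tested. Leaving out rps19bp1 and RPL7L1 was chosen after seeing the data.

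Over all genes, libraries with the same replicate number did not deviate together (correlations of -0.0362 to 0.0288). The median member, however, was lowest in library 3 of each group, at 0.025 in BEZO, -0.095 in BaAQ and -0.049 in Control. These correlations therefore do not settle whether the numbers pair the samples. The replicate block gave 4, 15 and 5 called members and 1184, 1916 and 839 called genes. With 3 libraries a group, the median 95% interval of a member reached 0.161 log2 units to either side, without adjustment for the number of genes. The smallest member change called was 0.202, for RPS28 in BaAQ against Control, while RPL31 at 0.321 in the same comparison was not called. Changes of this size could thus be missed.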
